A study of Mus musculus with 10 samples.

Results

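The data described here compare lymphatic endothelial cells (LECs) of mouse ear skin between mice induced to delete *Tie1* after birth and control mice. They were chosen by label: Smart-seq plates of the strain with floxed *Tie1* alone, 2 plates carrying the Prox1CreERT2 transgene (*Tie1* iΔLEC) and 2 plates without it (*Tie1* fl/fl). These are 4 of 10 samples of the series. On a Smart-seq plate each well holds one sorted cell, and the reads of each well are counted per gene. Wells with at least 50000 gene counts, spike-ins left out, and at least 1000 detected genes were kept. They numbered 1278 of 1524, with 271 and 340 in *Tie1* fl/fl and 323 and 344 in *Tie1* iΔLEC. The whole series has 2664 such wells on 8 Smart-seq plates.

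All 4 plates came from mice homozygous for the floxed *Tie1* allele that were given 62.5 μg of 4-hydroxytamoxifen from P1 to P5. The agent was thus given to the control mice as well. According to the paper, the injections were daily and the LECs were taken from pups weeks after the last one. Each genotype had 1 female plate (replicate 1) and 1 male plate (replicate 2). Cells were sorted as CD31- and PDPN-positive cells without CD45, CD11b or Ter119. In Prox1CreERT2 mice the *Prox1* promoter drives a tamoxifen-dependent recombinase, so the floxed allele is removed in cells that use that promoter, and the transgene was absent from every control plate. An effect of the transgene and an effect of the deletion cannot be told apart in these plates. How many mice contributed to a plate is not given in the sources used here, so p-values measure only the spread between plates. The female plates were deposited with gene symbols and the male plates with Ensembl identifiers, so sex and table layout cannot be told apart either. Plates of the same layout were paired in the test. The test also used 4 Smart-seq plates of a strain homozygous for floxed *Tie1* and floxed *Tek*, all male. Of these, 2 carried Prox1CreERT2 (*Tie1 Tie2* iΔLEC) and 2 did not (*Tie1 Tie2* fl/fl). All 4 came from mice given the same 62.5 μg of 4-hydroxytamoxifen from P1 to P5. They shared in the estimate of the spread and are set beside the *Tie1* strain near the end.

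Tie1 and Tie2 (encoded by *Tek*) are receptor tyrosine kinases of endothelium. Tie2 binds the angiopoietins, Tie1 has no firmly established ligand of its own and modulates Tie2, and Ang2 (*Angpt2*) is made by endothelial cells themselves. Downstream, PI3K and Akt keep FOXO transcription factors out of the nucleus, and *Angpt2* is a known FOXO1 target. In skin, the pathway is known for its part in the growth of lymphatic capillaries, the maturation of collecting vessels and the formation of lymphatic valves.

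The promoters below belong to genes that stood out most on the higher side of the comparison, *Uchl1*, *Mgll*, *Cd36* and *Rsad2*. They are the first genes, in order of p, that have an entry in the RefSeq promoter table. They are shown so that the consensus FOXO motif GTAAACA, searched because FOXO factors are part of the pathway described above, can be read from the letters. Each run is 250 bases of the strand of the gene, 5′ to 3′, taken at the start that RefSeq gives. For *Cd36* that start lies well inside the span of the gene in the GENCODE annotation (chr5:17781690-17888801, minus strand). Capitals mark GTAAACA or its reverse complement TGTTTAC. The *Uchl1* promoter lies at chr5:66675871-66676120 (plus strand, GRCm38.p6), that of *Mgll* at chr6:88724162-88724411 (plus strand), that of *Cd36* at chr5:17835897-17836146 (minus strand) and that of *Rsad2* at chr12:26456453-26456702 (minus strand).
Uchl1: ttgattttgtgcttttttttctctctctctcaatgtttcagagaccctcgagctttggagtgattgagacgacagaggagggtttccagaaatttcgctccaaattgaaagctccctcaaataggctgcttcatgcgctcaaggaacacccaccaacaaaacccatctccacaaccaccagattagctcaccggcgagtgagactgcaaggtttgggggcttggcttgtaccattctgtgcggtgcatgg
Mgll: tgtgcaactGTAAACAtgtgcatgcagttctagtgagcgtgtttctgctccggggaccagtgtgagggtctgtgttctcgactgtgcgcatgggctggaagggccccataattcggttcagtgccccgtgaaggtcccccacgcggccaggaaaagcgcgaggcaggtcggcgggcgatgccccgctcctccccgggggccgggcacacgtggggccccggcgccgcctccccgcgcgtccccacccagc
Cd36: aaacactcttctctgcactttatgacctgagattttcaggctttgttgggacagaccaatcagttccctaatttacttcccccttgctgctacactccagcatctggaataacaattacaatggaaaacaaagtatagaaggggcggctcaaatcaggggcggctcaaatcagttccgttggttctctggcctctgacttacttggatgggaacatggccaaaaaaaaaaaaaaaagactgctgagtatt
Rsad2: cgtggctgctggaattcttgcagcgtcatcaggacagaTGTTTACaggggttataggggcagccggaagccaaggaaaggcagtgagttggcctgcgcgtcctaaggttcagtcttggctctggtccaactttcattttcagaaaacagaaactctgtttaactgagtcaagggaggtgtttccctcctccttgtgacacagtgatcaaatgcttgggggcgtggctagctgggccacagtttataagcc
The motif was present in *Mgll* and *Rsad2* and not in *Uchl1* or *Cd36*. Of all 32851 promoter windows, 3.17% held it on either strand, as did 2.90% of the 12703 tested genes with a window. A match describes letters only. Of the 24 genes named below, 7 of the higher and 9 of the lower genes had a window, and 2 of those 7 and 0 of those 9 held the motif.

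Depth was similar among the 4 plates. The kept wells held 82097396 to 91387609 gene counts per plate, and the median well had 206097 to 272186 counts. The female plates, deposited with gene symbols, had more detected genes per well, with medians of 7466 and 7255. The male plates, with Ensembl identifiers, had 4274 and 3809. In the strain with both genes floxed, all male, medians were 6548 and 6064 on symbol plates and 5148 and 3763.5 on Ensembl plates. The cause was not tested. On the female control plate, 107 of 378 wells fell below the count minimum, and 71.7% were kept against 85.4% to 89.6% on the other plates. Values are given as CPM, the count of a gene scaled to the total count of its plate as edgeR does it, so that plates of unequal depth can be compared. Pan-lymphatic markers were high throughout: *Prox1*, the transcription factor that defines LECs, had 700 to 1085 CPM, and *Flt4*, which encodes VEGFR3, had 1266 to 1689 CPM. The fixed markers of fibroblasts, keratinocytes, leukocytes, mural and erythroid cells together took 0.012% to 0.018% of counts.

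The targeted gene was measured at 2243 and 2907 CPM in *Tie1* fl/fl and 679.8 and 657 CPM in *Tie1* iΔLEC. The plates of the 2 genotypes did not overlap (log2 fold change -1.93 ± 0.22 (SE), unadjusted p = 0.000215). At least 100 CPM of *Tie1* were found in 100% and 95.9% of control wells but also in 55.1% and 34.9% of wells of the deleted plates. Among wells with a *Tie1* read, the median was 2358 and 2732 CPM on the control plates. It was 122 and 37.8 CPM on the deleted plates, where 100% and 70.6% of wells had a read. The sums below thus mix wells of unlike *Tie1* level. *Tek* was not called, at 217 and 346 CPM in *Tie1* fl/fl and 212 and 248 CPM in *Tie1* iΔLEC (log2 fold change -0.26 ± 0.23 (SE), unadjusted p = 0.304). *Angpt2* had 349.6 and 392 CPM in *Tie1* fl/fl and 863 and 1023 CPM in *Tie1* iΔLEC, with no overlap (log2 fold change 1.34 ± 0.31 (SE), unadjusted p = 0.00685). In the male pair, the table also holds reads of an eGFP construct, 12 reads in 10 wells of the control plate and 1401 reads in 202 wells of the deleted plate. The labels name no eGFP allele, and its part in any result was not tested.

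No gene passed an adjusted p of 0.05 in edgeR's quasi-likelihood test over 20245 genes with Benjamini-Hochberg adjustment, *Tie1* included (0.0%). At an unadjusted p under 0.05 there were 939 genes (4.64%), 601 higher (2.97%) and 338 lower (1.67%) in *Tie1* iΔLEC. DESeq2, run on the same sums, called 271 genes at an adjusted p under 0.05 (1.34%), 199 higher (0.983%) and 72 lower (0.356%). Most of these were genes of few reads on the higher side: among the 9770 genes averaging 10 CPM or more over the 4 plates, DESeq2 called 50 higher (0.512%) and 46 lower (0.471%). When edgeR was refitted to the 9795 genes averaging 10 CPM or more over the 8 plates, a choice made after seeing the data, 21 genes passed (0.214%), 18 higher (0.184%) and 3 lower (0.0306%). An exact permutation test of 2 plates against 2 that ignores the pairing cannot give a two-sided p below 0.333. One that swaps plates only within pairs has a higher limit.

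Because no gene passed the main test, the 24 genes described next are the 12 higher and 12 lower genes with the smallest unadjusted p among genes averaging 10 CPM or more whose groups did not overlap. Separation of the groups is common: 13.9% of genes at this level were higher in both deleted plates than in both controls, and 15.5% were lower. All 24 had an edgeR adjusted p of 1 in the main test and a DESeq2 adjusted p under 0.05. The mean covered both genotypes, so a gene could reach 10 CPM through 1 of them. *Cd36*, *Prmt6*, *Kif21b*, *Uchl1*, *Kcnj8* and *Rsad2* averaged less in controls, from 9.31 down to 0.0443 CPM, and passed through the deleted plates. *Itih2* and *Metap1d* averaged 0.459 and 7.16 CPM on the deleted plates and passed through the controls. Since the rule used this contrast, the fold changes of all 24 genes are given as a description. The plot of CPM by plate shows every value.

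**Figure D1:**
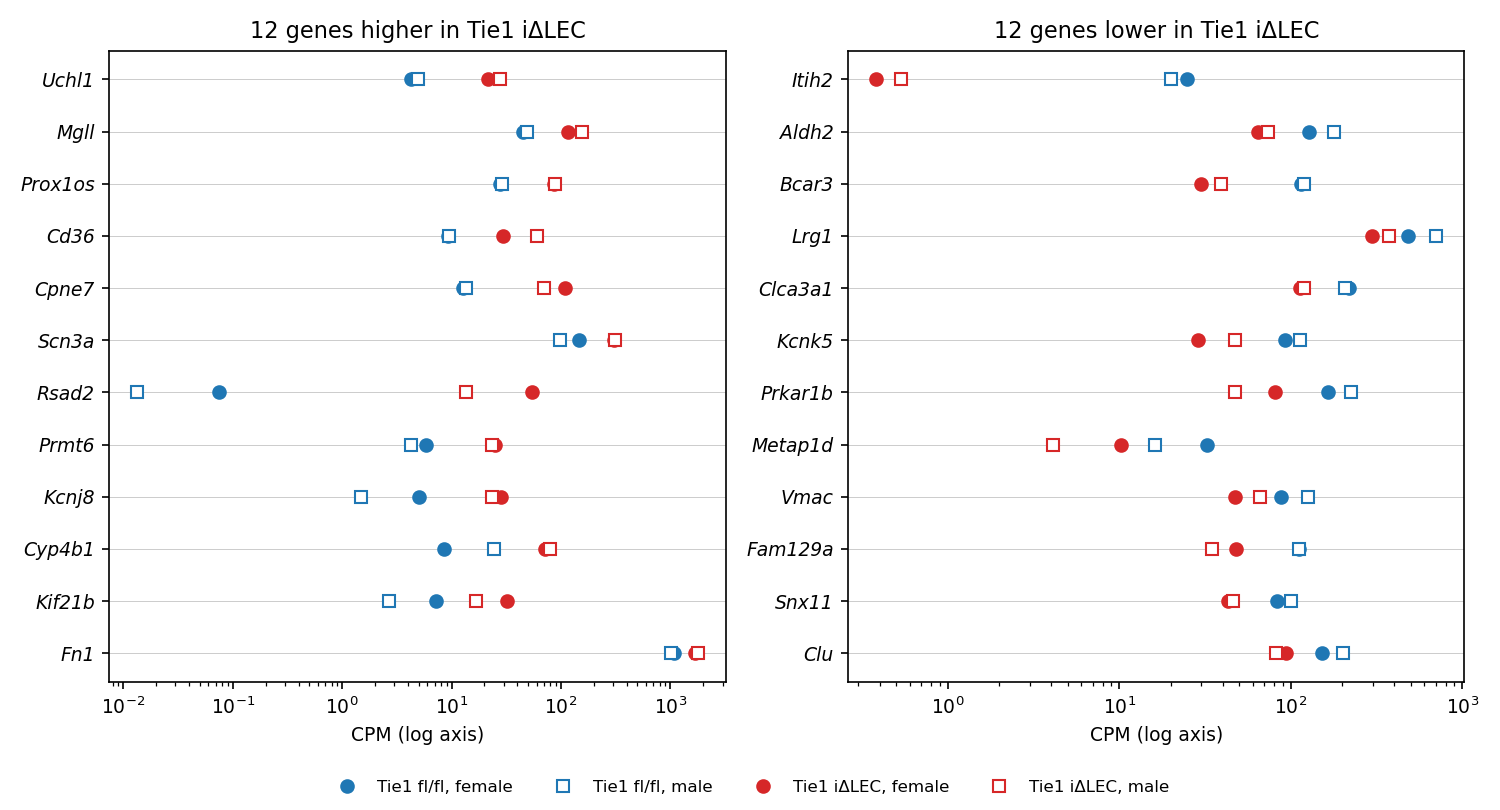
CPM of the 12 higher (left) and 12 lower (right) genes on a log axis, 1 point per plate; blue marks *Tie1* fl/fl and red *Tie1* iΔLEC, circles the female and squares the male plates. Blue and red points do not overlap for any gene, which the choice of genes fixed; *Rsad2* and *Itih2* are the most widely spaced and rest on few wells.

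The 12 higher genes are given first, in no functional group, since they were picked by p and not from a list. *Cd36*, a scavenger receptor that takes up long-chain fatty acids and binds thrombospondin, had 9.22 and 9.40 CPM in *Tie1* fl/fl and 29.6 and 59.9 CPM in *Tie1* iΔLEC (log2 fold change 2.18 ± 0.31, SE). *Mgll*, the lipase that cleaves monoacylglycerols and degrades the endocannabinoid 2-AG, had 45.2 and 48.9 CPM in *Tie1* fl/fl and 115 and 155 CPM in *Tie1* iΔLEC (1.51 ± 0.19). *Cyp4b1*, a cytochrome P450 that oxidizes fatty acids and foreign compounds, had 8.55 and 24.5 CPM in *Tie1* fl/fl and 71.3 and 78.8 CPM in *Tie1* iΔLEC (2.37 ± 0.39). Both deleted plates exceeded both controls for each, although the 2 deleted plates differed widely in *Cd36* and the 2 controls in *Cyp4b1*. Wells with at least 100 CPM of *Cd36* made up 3.0% and 2.1% of the control plates and 9.3% and 11.9% of the deleted plates. For *Mgll* these shares were 10.0% and 10.3% against 21.7% and 25.0%.

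Among ion channel genes, *Scn3a*, the alpha subunit of a voltage-gated sodium channel, had 145 and 98.7 CPM in *Tie1* fl/fl and 306 and 312 CPM in *Tie1* iΔLEC. At least 100 CPM of it were found in 34.7% and 21.2% of control wells and in 61.0% and 46.8% of deleted wells. *Kcnj8*, the pore subunit of the ATP-sensitive potassium channel Kir6.1, was low, with 5.05 and 1.5 CPM in *Tie1* fl/fl and 28.1 and 23.6 CPM in *Tie1* iΔLEC. Both were thus higher in each pair of plates, by 1.07 and 1.65 on the log2 scale for *Scn3a* in the female and male pair. *Kcnk5*, a two-pore potassium channel, went the other way, with 92.8 and 113 CPM in *Tie1* fl/fl and 28.8 and 47.2 CPM in *Tie1* iΔLEC (-1.48 ± 0.25).

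*Fn1*, which encodes fibronectin, had the highest CPM of the 24 genes, with 1071 and 1020.4 CPM in *Tie1* fl/fl and 1669 and 1770.2 CPM in *Tie1* iΔLEC (0.72 ± 0.13). It was broadly used, with at least 100 CPM in 91.9% and 70.0% of control wells and 99.4% and 87.2% of deleted wells. The *Fn1* gene lies at chr1:71585520-71653200 on the minus strand of GRCm38. *Prox1os*, an antisense transcript that overlaps *Prox1* (chr1:190170296-190217276, plus strand), had 27.7 and 29.1 CPM in *Tie1* fl/fl and 86.8 and 88.0 CPM in *Tie1* iΔLEC. *Prox1* itself had 709.6 and 699.7 CPM in *Tie1* fl/fl and 1085 and 876 CPM in *Tie1* iΔLEC (log2 fold change 0.47 ± 0.15 (SE), unadjusted p = 0.0219). Whether the counting used strand is not stated, so reads from the stretch where *Prox1* and *Prox1os* overlap cannot be told apart. The Cre transgene that only the deleted plates carry is driven by the *Prox1* promoter. Wells with at least 100 CPM of *Prox1os* made up 5.2% and 7.1% of the control plates and 29.1% and 30.5% of the deleted plates.

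The remaining higher genes follow. *Uchl1*, a deubiquitinating enzyme best known from neurons, had 4.29 and 4.97 CPM in *Tie1* fl/fl and 21.5 and 27.5 CPM in *Tie1* iΔLEC, and *Cpne7*, a calcium-dependent membrane-binding copine, had 12.7 and 13.5 CPM in *Tie1* fl/fl and 109 and 70.0 CPM in *Tie1* iΔLEC. *Prmt6*, an arginine methyltransferase of histones, had 5.82 and 4.27 CPM in *Tie1* fl/fl and 24.8 and 23.4 CPM in *Tie1* iΔLEC, and *Kif21b*, a kinesin motor, had 7.23 and 2.67 CPM in *Tie1* fl/fl and 32.2 and 16.6 CPM in *Tie1* iΔLEC. The genotypes were apart for all 4, yet single wells held a large part of the control reads, with 58.5% and 53.9% of *Prmt6* and 67.0% and 50% of *Kif21b* reads in 1 well of the female and male control plate. *Rsad2*, the antiviral protein viperin, is an extreme case. It had 7 and 1 reads on the control plates and 4788 and 1073 on the deleted plates, but 1 well held 44.8% and 97.9% of the latter. The number of wells with at least 100 CPM of *Rsad2* was 23 of 323 and 1 of 344 on the deleted plates, and 0 of 271 and 0 of 340 on the controls.

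The 12 lower genes were picked in the same way. *Lrg1*, a secreted leucine-rich glycoprotein that modulates TGF-β signaling in endothelium, had 483 and 706 CPM in *Tie1* fl/fl and 298 and 372 CPM in *Tie1* iΔLEC (-0.81 ± 0.15). *Clu*, the extracellular chaperone clusterin, had 153 and 202 CPM in *Tie1* fl/fl and 93.7 and 81.8 CPM in *Tie1* iΔLEC (-1.01 ± 0.22), and *Clca3a1*, a membrane protein of lymphatic endothelium related to chloride channel regulators, had 219 and 207 CPM in *Tie1* fl/fl and 113 and 120.0 CPM in *Tie1* iΔLEC (-0.87 ± 0.17). The groups did not overlap for any of them. At the level of wells, 65.7% and 60.3% of control wells had at least 100 CPM of *Lrg1* against 41.8% and 44.2% of deleted wells, and the shares for *Clca3a1* were 47.6% and 39.1% against 27.6% and 21.2%. *Clu* reached that level in fewer wells, 22.1% and 17.9% against 12.7% and 9.0%. *Itih2*, a heavy chain of the inter-alpha-trypsin inhibitors that stabilize hyaluronan, had 24.9 and 19.9 CPM in *Tie1* fl/fl and 0.383 and 0.535 CPM in *Tie1* iΔLEC, and 47.8% and 34.3% of its control reads lay in 1 well each.

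*Prkar1b*, a regulatory subunit of protein kinase A, had 166 and 225 CPM in *Tie1* fl/fl and 80.7 and 47.1 CPM in *Tie1* iΔLEC (-1.65 ± 0.33). *Bcar3*, an adaptor of the p130Cas adhesion pathway, had 114 and 119.6 CPM in *Tie1* fl/fl and 30.1 and 39.1 CPM in *Tie1* iΔLEC (-1.77 ± 0.32). *Aldh2*, the mitochondrial aldehyde dehydrogenase, had 127 and 179.7 CPM in *Tie1* fl/fl and 64.0 and 73.7 CPM in *Tie1* iΔLEC (-1.14 ± 0.20). In each case both deleted plates lay clearly below both controls. *Fam129a* was similar, with 112 and 111 CPM in *Tie1* fl/fl and 47.9 and 34.9 CPM in *Tie1* iΔLEC. The 3 others were *Snx11*, a sorting nexin of endosomes, with 82.6 and 99.8 CPM in *Tie1* fl/fl and 43.2 and 46.0 CPM in *Tie1* iΔLEC, *Vmac*, with 87.5 and 125 CPM in *Tie1* fl/fl and 47.1 and 65.9 CPM in *Tie1* iΔLEC, and *Metap1d*, a mitochondrial methionine aminopeptidase, with 32.7 and 16.2 CPM in *Tie1* fl/fl and 10.2 and 4.13 CPM in *Tie1* iΔLEC. Wells with at least 100 CPM of *Vmac* were nearly as frequent in both genotypes, 13.7% and 11.8% against 10.8% and 11.6%, and those of *Snx11* were 13.3% and 12.9% against 10.2% and 9.3%. For sums over a plate, fewer cells that use a gene and less RNA per cell cannot be told apart, and the shares of wells given here carry the depth of each well.

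**Figure D2:**
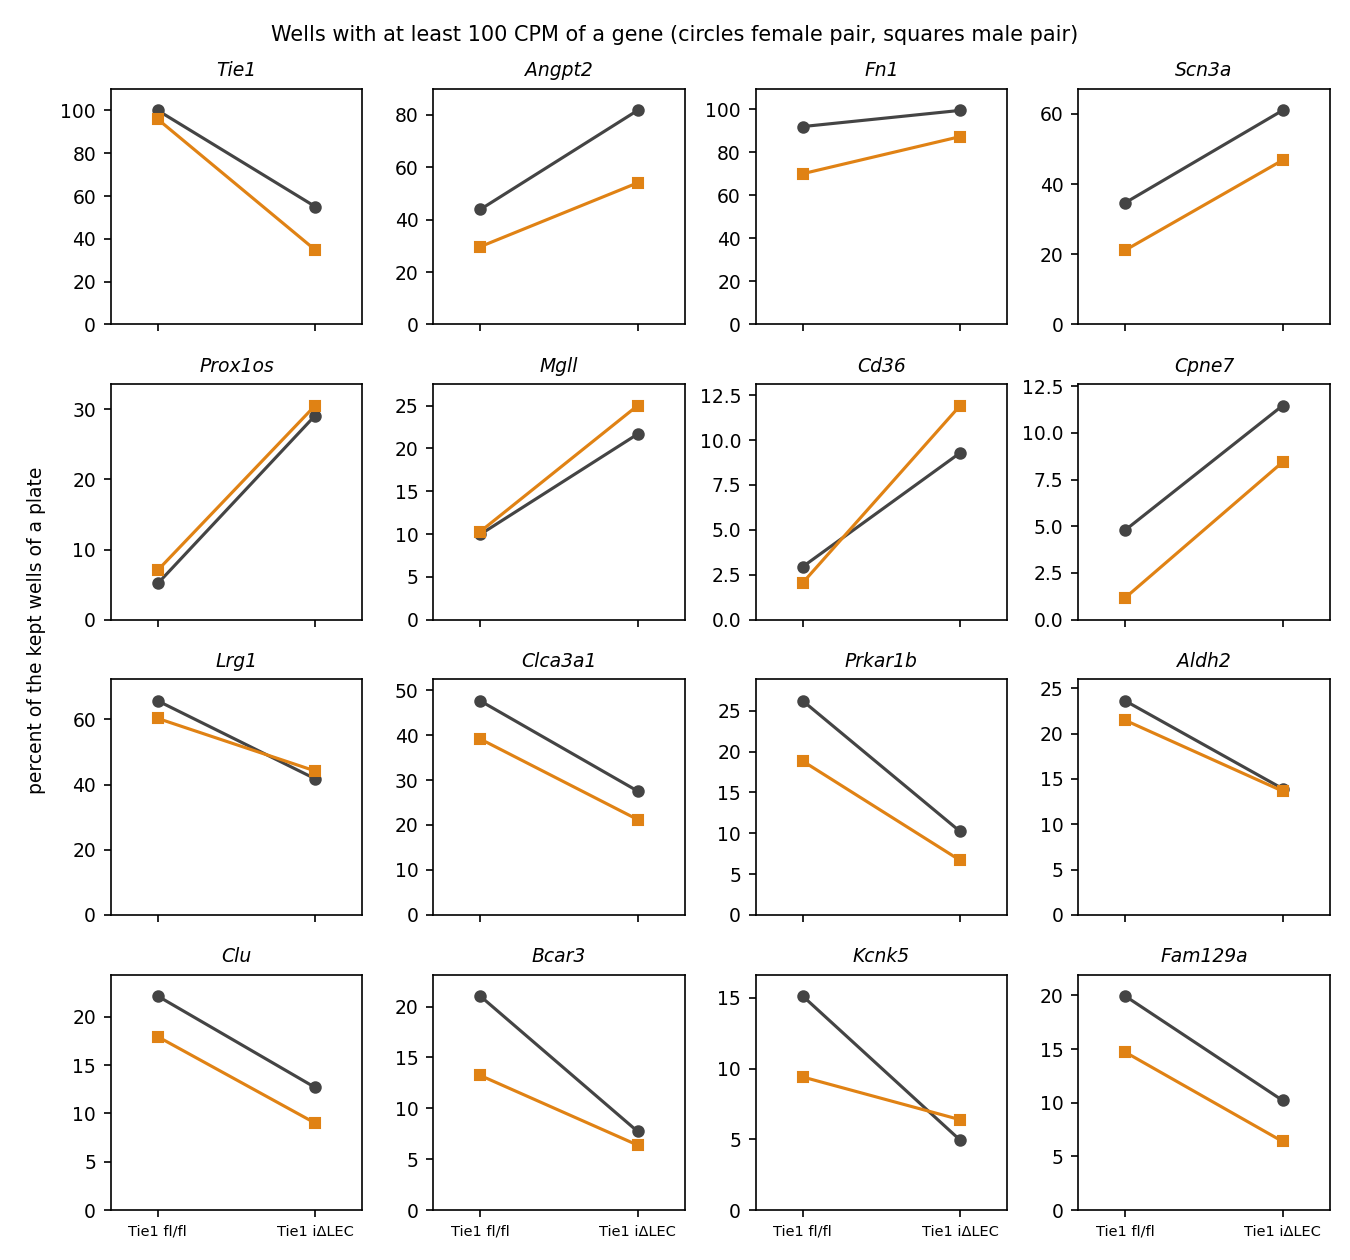
Percent of the kept wells of a plate with at least 100 CPM of a gene, for *Tie1*, *Angpt2* and 14 of the 24 named genes; lines join the *Tie1* fl/fl and *Tie1* iΔLEC plate of a pair, circles for the female and squares for the male pair. The share moved in the same direction in both pairs in all 16 panels, for example from 34.7% to 61.0% and from 21.2% to 46.8% for *Scn3a*. For the 14 named genes, their choice by sums over these same wells largely fixed this.

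The gene lists of LEC subtypes, the Tie pathway and vessel functions are described by counts and medians. The paper describes its clusters of LECs from these same genotypes by the marker genes they express. The collector and capillary genes named below, and *Neo1* and *Gdf10* of the valve list, are among those markers. These subtype lists were thus not independent of the data, and shares over all genes tested are no test of them. The median log2 fold change over all 20245 genes was 0.01. None of the list members passed the adjusted threshold in the main test, so the counts refer to an unadjusted p under 0.05, reached by 4.64% of all genes, and to plates that did not overlap.

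Most markers of collecting vessels were lower. The median log2 fold change of the 7 genes was -0.50, and 6 of 7 were lower in both pairs; 4 of 7 did not overlap, against a background of 13.7% of all genes tested, and 2 of 7 had an unadjusted p under 0.05. *Bgn*, the proteoglycan biglycan, had 456 and 584 against 336 and 233 CPM (control against deleted plates here and below). *Procr*, the endothelial protein C receptor, had 154 and 152 against 115 and 92.4 CPM, and *Tsc22d1*, a transcription regulator, had 475 and 665 against 378 and 512 CPM. *Ccdc3*, a secreted protein, had 347 and 224 against 244 and 132 CPM. The values of *Tsc22d1* and of *Ccdc3* overlapped between the genotypes. *Plvap* was the exception, higher in one pair and lower in the other.

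Valve markers and regulators leaned the other way, with a median of 0.24. Of 15 genes, 9 were higher without overlap, against 14.9% of all genes tested, 1 was lower, and 2 had an unadjusted p under 0.05. *Neo1*, which encodes the netrin and repulsive guidance molecule receptor neogenin, had 89.8 and 107 against 232 and 272 CPM, a difference of 1.36 ± 0.31 (SE) on the log2 scale. *Neo1* was found at 100 CPM or more in 14.0% and 8.8% of control wells and in 26.9% and 21.8% of deleted wells. *Gja1*, the gap junction protein connexin 43, had 252 and 293 against 364 and 365 CPM (log2 fold change 0.42 ± 0.15 (SE), unadjusted p = 0.0358). *Gdf10*, a BMP family ligand, had 244 and 175 against 299 and 365 CPM (log2 fold change 0.67 ± 0.35 (SE), unadjusted p = 0.11).

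Capillary markers had a median of 0.04, and 1 of 7 passed p under 0.05, *Piezo2*, a mechanosensitive cation channel, with 165 and 174 against 252 and 256 CPM. *Lyve1*, the hyaluronan receptor of lymphatic capillaries, had 1630.1 and 2395 against 2109.7 and 2692 CPM, values that overlapped between the genotypes (log2 fold change 0.27 ± 0.13 (SE), unadjusted p = 0.0849). The 16 pan-lymphatic identity genes had a median of 0.00, with 2 higher at this threshold, *Prox1* and the scavenger receptor *Stab1* (1509.7 and 1563 against 1922 and 1876 CPM). Among VEGF receptors and coreceptors 0 of 12 had an unadjusted p under 0.05 in edgeR and DESeq2 called 0. *Flt4* had 1554 and 1266 against 1689 and 1673 CPM (log2 fold change 0.26 ± 0.23 (SE), unadjusted p = 0.307), and *Nrp2*, the VEGF-C coreceptor neuropilin 2, had 418 and 294 against 391 and 259 CPM (log2 fold change -0.14 ± 0.15 (SE), unadjusted p = 0.38).

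**Figure D3:**
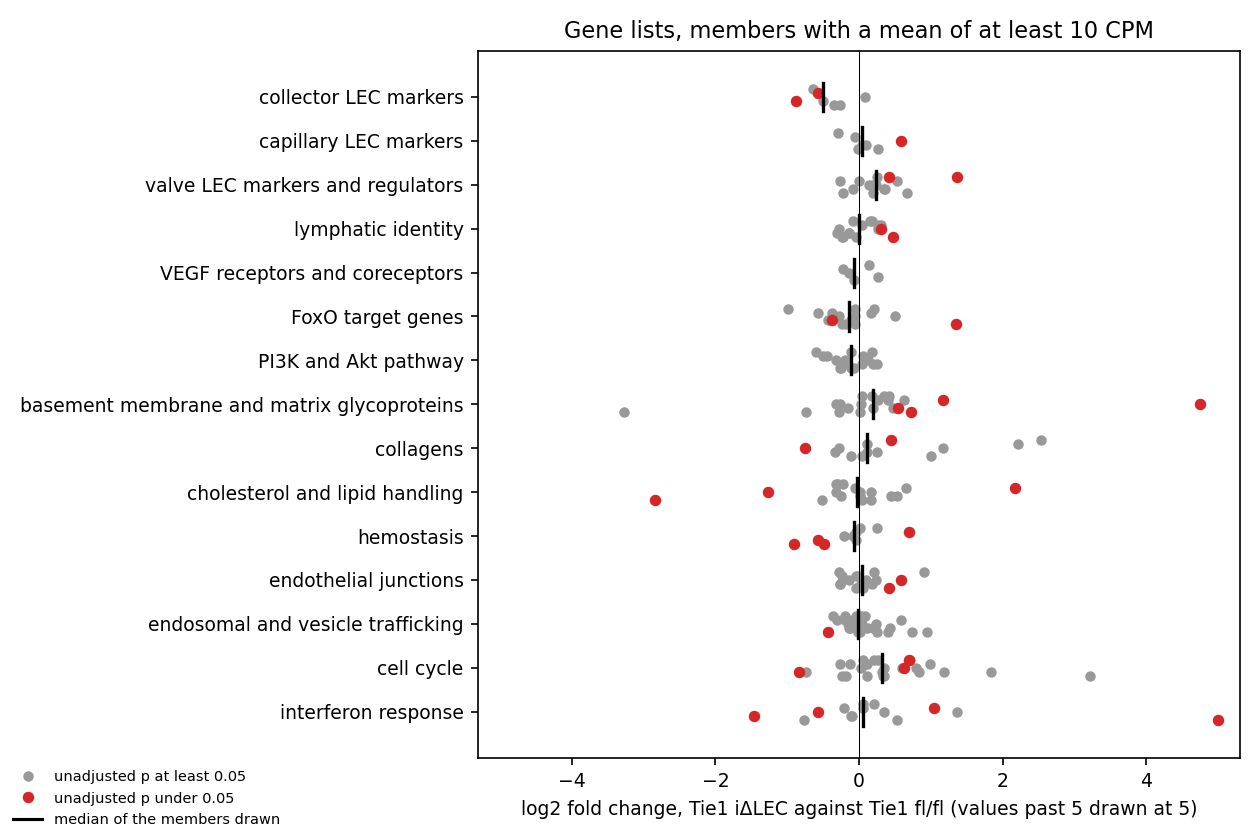
Log2 fold changes of *Tie1* iΔLEC against *Tie1* fl/fl for members of 15 gene lists that averaged 10 CPM or more; 1 point per gene, red where the unadjusted p was under 0.05, and black bars for the median of the points drawn. Collector markers lie mostly below 0 (median -0.50 over all 7), valve markers mostly above (0.24 over all 15); *Rsad2*, at 9.58, is drawn at 5.

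In the PI3K and Akt pathway the median over 20 genes was -0.09, and 1 was higher and 0 lower at an unadjusted p under 0.05 in edgeR, with the same counts among DESeq2 calls. *Pdpk1*, the kinase that activates Akt, had 44.0 and 50.6 against 28.6 and 33.8 CPM, and *Akt2* had 43.4 and 74.2 against 32.4 and 49.2 CPM; neither had an unadjusted p under 0.05. FOXO target genes had a median of -0.14: *Angpt2* was higher and *Txnip*, which encodes a thioredoxin inhibitor, was lower, at 2045 and 2466 against 1652 and 1824 CPM, while *Pik3ip1*, an inhibitor of PI3K, had 61.1 and 45.7 against 22.6 and 31.5 CPM (log2 fold change -0.98 ± 0.44 (SE), unadjusted p = 0.073). Thus 3 of 22 were higher in both pairs and 8 of 22 were lower in both, against 25.0% and 24.6% of all genes tested.

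Of 24 basement membrane and matrix glycoprotein genes, 10 were higher and 5 lower without overlap, against 14.9% and 13.7% of all genes tested, the median was 0.19, and 4 had an unadjusted p under 0.05, all higher. Beside *Fn1* these were *Tnc*, the matrix protein tenascin C (20.9 and 26.0 against 45.3 and 61.0 CPM), the collagen-binding *Sparc* (163 and 150.2 against 273 and 189.6 CPM) and its relative *Sparcl1* (2.22 and 0.162 against 18.3 and 19.4 CPM). For *Sparcl1*, 1 well held 55.9% and 27.9% of the reads of the deleted plates. Of 23 collagen genes, *Col4a2*, a chain of basement membrane collagen IV, was higher (756 and 880.4 against 955 and 1282 CPM) and the transmembrane *Col23a1* was lower (144 and 128 against 73.4 and 88.4 CPM), both at an unadjusted p under 0.05. Of 23 tested genes of matrix remodelling enzymes and inhibitors, 4 were higher and 3 lower without overlap, near the 14.9% and 13.7% of all genes tested. At an unadjusted p under 0.05 in edgeR, 2 were higher and 0 lower. *Mmp2*, a gelatinase that cleaves matrix proteins, had 142 and 175 against 249.8 and 325 CPM, and *Plat*, tissue plasminogen activator, had 69.4 and 84.8 against 101 and 152 CPM.

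In the hemostasis list of 17 genes, 15 were tested, and 3 of the 15 were lower at an unadjusted p under 0.05 and 1 was higher, *Plat*. The lower genes were *Thbd*, which encodes the thrombin receptor thrombomodulin (194 and 335 against 125 and 148 CPM), *Procr* and *Serpine2*, an inhibitor of thrombin (545 and 607 against 405 and 415 CPM). None of the fold changes of the 3 exceeded 1 on the log2 scale in size.

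Lipid handling genes were split. The median over 20 genes was -0.08. *Cd36* was higher while *Apoe*, the lipoprotein ligand apolipoprotein E, had 119.8 and 126 against 62.2 and 42.0 CPM and *Fabp4*, a fatty acid carrier, had 27.0 and 21.3 against 1.90 and 5.85 CPM. *Pparg*, the nuclear receptor that drives both *Cd36* and *Fabp4* in adipocytes and macrophages, had 76.4 and 54.2 against 51.9 and 39.4 CPM (log2 fold change -0.51 ± 0.24 (SE), unadjusted p = 0.0858).

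Growth factor and junction genes gave scattered values. *Igf2* had 118 and 57.7 against 209 and 161 CPM and its receptor *Igf1r* 21.7 and 18.1 against 36.2 and 36.6 CPM, both without overlap. *Thbs1*, a matrix protein and YAP target, had 140.5 and 239 against 251 and 371 CPM, so both deleted plates exceeded both controls. Of 26 BMP and TGF-β pathway genes, 3 were higher at an unadjusted p under 0.05: *Bmp2*, at most 5.22 CPM on any plate and named after its values were seen, the receptor-activated *Smad1* (265 and 246 against 358 and 398 CPM) and the ligand *Bmp6* (21.9 and 5.72 against 37.2 and 25.9 CPM). Of 22 endothelial junction genes, 7 were higher without overlap and 2 lower, against 14.9% and 13.7% of all genes tested, with a median of 0.05; *Tjp1*, which encodes ZO-1, had 79.5 and 65.8 against 101 and 117 CPM. Of 36 genes of endosomal and vesicle trafficking, 1 passed, *Dab2*, a clathrin adaptor, with 445 and 389 against 325 and 291 CPM.

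Cell cycle genes had a median of 0.33 over 30 genes, but only 2 were higher and 1 lower at that threshold. The D-type cyclins lay in opposite directions, *Ccnd2* with 155 and 143 against 287 and 186 CPM and *Ccnd1* with 286 and 260.3 against 199 and 118 CPM, and *Mcm3*, a subunit of the replicative helicase, had 60.0 and 93.4 against 126 and 117 CPM. Interferon response genes also went both ways. Of 20, 8 were higher and 4 lower without overlap, against 14.9% and 13.7% of all genes tested, with a median of 0.13. At an unadjusted p under 0.05 in edgeR, 2 were higher and 2 lower. *Ifih1*, a cytosolic RNA sensor, had 11.8 and 10.8 against 23.4 and 23.0 CPM and *Usp18*, which removes ISG15, had 39.7 and 43.8 against 21.9 and 10.4 CPM. *Icam1*, the leukocyte adhesion molecule, had 179 and 346 against 99.5 and 192 CPM, a pair-wise difference in the same direction although the groups overlapped. Dissociation stress genes had a median of 0.14, with *Dusp1* at 362 and 502 against 561 and 614 CPM.

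Notch pathway genes had a median of 0.34 over 16 genes, with 2 higher and 1 lower at an unadjusted p under 0.05. *Mfng*, a glycosyltransferase that modifies Notch receptors, and *Notch3* were the higher genes, named after their values were seen, and both stayed under 3 CPM on every plate. *Jag1*, a Notch ligand, was lower, with 20.7 and 20.7 against 13.7 and 7.57 CPM. In the next lists, too, 14.9% higher and 13.7% lower without overlap is the share over all genes tested. Of 16 flow response genes, 6 were lower and 3 higher without overlap, with a median of -0.08, and of 16 glycolysis genes 0 were higher and 1 lower without overlap, with a median of -0.02. Of 25 axon guidance genes, 7 were higher and 4 lower without overlap; *Unc5b*, a netrin receptor, had 132 and 83.9 against 173 and 120.3 CPM.

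Of the markers that set blood vascular endothelium apart, *Emcn* was lower at 265 and 271 against 150.3 and 144 CPM, while *Aqp1* was higher at 231 and 277 against 340.4 and 507 CPM and *Cd34* at 11.1 and 18.5 against 19.6 and 32.4 CPM. The 6 markers summed to 1439 and 1665 CPM in controls and 1592 and 1740.2 CPM in deleted plates. Mural markers summed to 15.2 and 9.68 CPM in controls and 25.8 and 46.0 CPM in deleted plates, leukocyte markers to 15.4 and 19.1 against 31.2 and 27.6 CPM, keratinocyte markers to 77.8 and 58.9 against 49.4 and 62.9 CPM, fibroblast markers to 64.6 and 46.0 against 68.0 and 57.2 CPM, and erythroid markers to at most 2.73 CPM on any plate. Of these 23 markers 21 were tested, and *Krt10*, *Krt1*, *Cd74* and *Pdgfrb* were higher at an unadjusted p under 0.05, each with at most 13.9 CPM on any plate, and none was lower. Their part in the other results was not tested. The sums cover the tested markers only, 3 of 5 for leukocytes. Each tested mural, leukocyte and erythroid marker had at least 1 read on some plate of the strain. With wells of 1% or more of such markers left out, at most 1 well per plate of the strain, the number of genes that passed the adjusted threshold was again 0.

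The strain with both *Tie1* and *Tek* floxed, with its own 2 deleted (*Tie1 Tie2* iΔLEC) and 2 control plates, all male, offers fold changes from other plates. It shares no plate with the *Tie1* strain. All 8 plates shared 1 estimate of the spread in the fit that ranked the 24 genes, so their choice was not independent of these plates, and a gene with little spread on them was more easily both chosen and called. In the same edgeR fit, deletion of both genes gave 124 called genes (0.612%), 24 higher (0.119%) and 100 lower (0.494%). These calls rest on all 4 plates of that strain: without any 1 of them edgeR called 0, while DESeq2 on all plates called 1513. Of the 12 higher genes, 12 were also higher on average with *Tie1/-2* deletion and 5 were called there: *Uchl1*, *Mgll*, *Cd36*, *Scn3a* and *Fn1*. For *Rsad2* and *Prmt6* the groups of that strain overlapped, with unadjusted p of 0.158 and 0.646 in edgeR. *Rsad2* had 2.40 and 0.219 CPM in *Tie1 Tie2* fl/fl and 2.36 and 4.48 CPM in *Tie1 Tie2* iΔLEC. Of the 12 lower genes, 11 were lower there and 9 were called: *Itih2*, *Aldh2*, *Bcar3*, *Lrg1*, *Clca3a1*, *Kcnk5*, *Prkar1b*, *Fam129a* and *Clu*. Among all genes averaging 10 CPM or more, 53.4% had the same direction in both strains. A nearer comparison is with the genes of that level whose unadjusted p for *Tie1* deletion was under 0.05 in edgeR, which include the 24. There, 72.1% of 208 higher and 80.4% of 199 lower genes had the same direction.

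The size of the change differed for many of them. *Lrg1* had a log2 fold change of -3.73 with *Tie1/-2* deletion (edgeR adjusted p = 0.0128) against -0.81 with *Tie1* deletion, and *Clca3a1* -4.46 against -0.87. *Kcnk5* had no read on either *Tie1 Tie2* iΔLEC plate, against 110.0 and 76.5 CPM in their controls, and *Prkar1b* had 0.0351 and 0.0315 CPM against 198 and 273. In *Tie1* iΔLEC these 2 genes kept 28.8 to 80.7 CPM. Yet the test of the difference between the deletions called no gene at an adjusted p of 0.05 in edgeR (0.0%). The unadjusted p of that difference was 2.68e-05 for *Lrg1*, 1.83e-05 for *Clca3a1* and 7.83e-06 for *Prkar1b*, and it was under 0.05 for 1637 genes (8.09%). DESeq2 called 709 genes in the difference (3.5%).

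For *Mgll*, *Cpne7* and *Kcnj8* the effects in the 2 strains lay closer together. The differences between the deletions were 0.54 ± 0.26 (SE) for *Mgll*, 0.12 ± 0.53 for *Cpne7* and 0.34 ± 0.70 for *Kcnj8* on the log2 scale, with unadjusted p of 0.091, 0.825 and 0.649 in edgeR. *Prmt6* had 0.17 with *Tie1/-2* deletion against 2.27, *Vmac* -0.07 against -0.91, and *Snx11* 0.36 against -1.03.

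**Figure D4:**
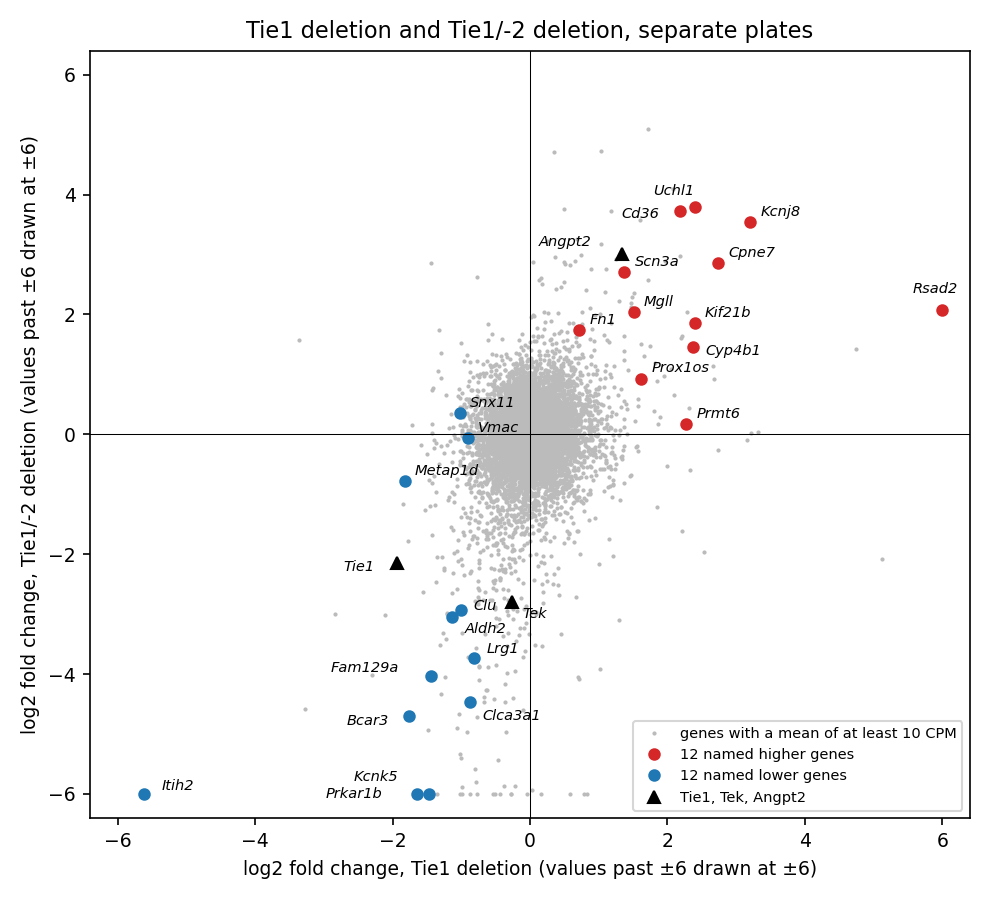
Log2 fold change with *Tie1* deletion (x axis) against that with *Tie1/-2* deletion (y axis); gray dots are genes averaging 10 CPM or more, red and blue points the 12 higher and 12 lower genes named here, triangles *Tie1*, *Tek* and *Angpt2*. All 12 red points lie above 0 on the y axis and 11 of 12 blue points below it; most blue points lie far lower on the y axis than on the x axis.

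Read from the other side, of the 98 genes other than *Tie1* and *Tek* that were called lower with *Tie1/-2* deletion, 90 were lower on average with *Tie1* deletion, 54 without overlap, against 13.7% of all genes tested. Another 3 were higher without overlap. Of the 98, 96 averaged 10 CPM or more, a level at which 15.5% of genes were lower without overlap. Since the spread was estimated over all 8 plates, these calls were not independent of the *Tie1* plates. Their median log2 fold change was -0.52 with *Tie1* deletion and -3.03 with *Tie1/-2* deletion. Of the 23 genes other than *Angpt2* called higher, 21 were higher with *Tie1* deletion, 11 without overlap (14.9% of all genes tested), with medians of 0.49 and 2.69. All 23 averaged 10 CPM or more, where that share was 13.9%, and 0 were lower without overlap. No set test was run on these lists. Medians of the gene lists above did not all share a sign between the strains. They were 0.24 with *Tie1* and -0.91 with *Tie1/-2* deletion for valve genes, and 0.42 and -1.48 for collagens. Matrix glycoproteins had 0.19 and -0.72. Collector markers had -0.50 and -1.85, and cell cycle genes 0.33 and 0.39. These lists were picked out after their values were seen, and the differences were not tested.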

How the data were processed

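The authors deposited raw counts per gene and well of Smart-seq plates. The submitters' processing notes name TopHat2 2.1.1, SAMtools 0.1.18, featureCounts and GRCm38; file headers show duplicate reads were removed, and the strand setting is not given in the sources used here. The symbol and Ensembl tables were joined on 42508 genes (96.4% to 97.1% of counts). Counts of kept wells were summed per plate. All 8 Smart-seq plates entered 1 edgeR 4.0.16 quasi-likelihood fit (R 4.3.3) with TMM scaling, filterByExpr, 4 pairs of plates as blocks and the deletion within each strain; called genes had a Benjamini-Hochberg adjusted p under 0.05. Deviations of paired plates from their group means correlated at 0.29 in the *Tie1* strain and 0.32 in the other. DESeq2 1.42.0 and limma 3.58.1 were alternatives. Scripts were tested on simulated data. Named genes were *Tie1*, *Tek*, *Angpt2*, the 12 higher and 12 lower genes with the smallest p (mean of at least 10 CPM, same direction in both pairs, no overlap, without *Xist* and Y-linked genes) and up to 4 members per list. *Gdf10*, *Plvap* and *Pik3ip1*, named outside that rule, and the level of 100 CPM per well were chosen after seeing values. Members and lists were chosen with earlier results of these data known. The samples from mice given IgG or Ang2 antibody, which are not among these plates, were not used. 1 gene is not reported here.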

Additional observations from a re-analysis of the deposited data

Results flagged for a closer look

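The tables with Ensembl identifiers hold a row for an eGFP construct that no comparison used. In the *Tie1* strain, 1401 eGFP reads were found on the male *Tie1* iΔLEC plate, in 202 of 344 wells, against 12 reads in 10 of 340 wells of the male *Tie1* fl/fl plate. In the other strain it was the control that held the signal, with 1652 reads in 220 of 352 wells of *Tie1 Tie2* fl/fl replicate 1 and 0 reads in 348 wells of *Tie1 Tie2* iΔLEC replicate 1. The count of 0 covers reads assigned to this row only. The female plates have no such row, and the labels name no eGFP allele.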

How the results depend on the processing

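With *Tie1* deletion the number of called genes was 0 in the main edgeR fit and under every alternative except 2: DESeq2 called 271 (199 higher, 72 lower) and edgeR on genes averaging 10 CPM or more, added after seeing the data, 21 (18 higher, 3 lower). Leaving out any plate gave 0, with 1018 to 1282 genes at an unadjusted p under 0.05; that count, 939 in the main fit, was 1624 with DESeq2 and 544 with the 10 CPM minimum. Without the replicate block the number of called genes was again 0, on 8 plates or on the 4 of the strain. With *Tie1/-2* deletion the 124 calls became 1513 with DESeq2, 672 with the 10 CPM minimum, 341 with limma, 202 without a filter on low counts and 204 without the replicate block; leaving out a plate gave 0 to 250, with 0 for each of the 4 plates of that strain, control or deleted, and 217 to 250 for each plate of the *Tie1* strain. The difference between the deletions, 0 in the main fit, gave 709 with DESeq2, 211 with the 10 CPM minimum, 19 with limma, 17 without the replicate block, 11 without a filter and 9 in wells low in other markers; leaving out a plate gave 0 to 3. The causes were not tested. The 24 named genes kept their direction under all alternatives run. Their choice for no overlap between the same plates largely fixed this, so it is no separate support. A few wells carry much of the reads of genes such as *Rsad2*, *Itih2* and *Sparcl1*, which limits what their sums can show. With 2 plates per genotype, every test is limited as well.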

Other observations

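Several genes that passed edgeR only when it was restricted to genes averaging 10 CPM or more over the 8 plates were near silent in controls. That mean included the deleted plates of both strains, and some genes reached it mainly through the *Tie1 Tie2* iΔLEC plates. *Esm1* had 54.1 and 90.5 CPM there, *Slco4a1* 43.0 and 45.8 CPM and *Prss12* 21.5 and 34.6 CPM. The filter thus favored genes that were low in controls and high in deleted plates, and the values below are a description only. *Prss12*, a serine protease known from neurons, had 0.419 and 0.148 CPM on the *Tie1* fl/fl plates and 8.41 and 9.06 CPM on the *Tie1* iΔLEC plates. *Slc38a1*, an amino acid transporter, had 2.64 and 0.0404 CPM on the *Tie1* fl/fl plates and 20.9 and 8.41 CPM on the *Tie1* iΔLEC plates, and *Plxdc2*, a transmembrane receptor, had 2.24 and 0.121 CPM on the *Tie1* fl/fl plates and 23.4 and 8.91 CPM on the *Tie1* iΔLEC plates. *Esm1*, a proteoglycan of angiogenic tip cells, had 0.118 and 0.0270 CPM on the *Tie1* fl/fl plates and 2.65 and 5.06 CPM on the *Tie1* iΔLEC plates, read from 0.9% and 1.2% of deleted wells at 100 CPM or more. *Slco4a1*, an organic anion transporter, had 1 and 1 reads on the controls and 1104 and 252 on the deleted plates, and 1 well held 50.4% and 88.1% of the latter. *F2rl1*, the protease-activated receptor PAR2, was more widely used, with 31.6 and 24.2 CPM on the *Tie1* fl/fl plates and 62.1 and 88.7 CPM on the *Tie1* iΔLEC plates, and 7.4% and 6.2% of control wells against 17.0% and 14.0% of deleted wells had at least 100 CPM.

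Some members of the gene lists had effects of opposite sign in the 2 strains. *Igf2* had a log2 fold change of 1.16 with *Tie1* deletion and -0.54 with *Tie1/-2* deletion, with an unadjusted p of 0.00596 for the difference in edgeR (adjusted p = 0.481). *Ccnd1* had -0.83 and 0.34 (unadjusted p of the difference 0.0126, edgeR adjusted p = 0.526), and *Plat* had 0.69 and -0.20 (0.0496, edgeR adjusted p = 0.615). These genes were picked out after their values were seen.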
